A study of Mus musculus with 6 samples.

Results

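Open chromatin was examined around 7 genes that regulate brown adipocyte fate: Prdm16, Ebf1, Ebf2, Ebf3, Zfp516, Irf4 and Ehmt1. They were chosen by name from the 21938 protein-coding genes of the GENCODE mm10 annotation on chromosomes 1 to 19, X and Y, and every peak of the Assay for Transposase-Accessible Chromatin with sequencing (ATAC-seq) with its summit inside one of these genes or within 100 kb of either end was taken. After the peaks of the 6 libraries were merged, 395 of 194610 regions lay in these windows. The libraries came from adipocytes differentiated in culture for 7 days from the stromal vascular fraction (SVF) of male, wild type C57BL/6J mice of 3 to 4 weeks, with 2 libraries per condition. Beige and white adipocytes were made from inguinal (subcutaneous) fat and brown adipocytes from brown fat. The beige and brown induction media held 5 μg/ml insulin, 5 μM dexamethasone, 1 nM T3, 1 μM rosiglitazone and 0.5 mM isobutyl methylxanthine. The white medium held 5 μg/ml insulin, 0.5 mM isobutyl methylxanthine and 1 μM dexamethasone, and neither T3 nor rosiglitazone. After 48 h the beige and brown cells were kept in insulin, T3 and rosiglitazone and the white cells in insulin alone. Beige and white therefore differ by medium, whereas brown and beige had the same medium and differ by depot. The paper's reporting summary lists the beige and white libraries but not the brown ones, and no batch is stated. In any comparison with brown a batch cannot be told apart from the depot. All cells are primary cultures, whose cell mixture was not sorted.

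Brown and beige adipocytes burn fuel to make heat, and a small set of nuclear proteins sets this fate in precursor cells and keeps it in mature adipocytes. Prdm16 is a transcriptional coregulator that turns on the brown fat programme, and Ehmt1 is a histone methyltransferase that acts in a complex with it. Ebf2 marks and specifies brown precursors, Ebf1 and Ebf3 are DNA-binding proteins of the same family, Zfp516 is a cold-induced zinc finger protein that activates Ucp1, and Irf4 is an interferon regulatory factor of thermogenic transcription that is also known from B cells and macrophages.

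The sequences below are the 200 bp around some of the summits named later, on the plus strand of mm10 (read from the GRCm38 reference). The 200 bp before 3 start sites follow, on the strand of the gene. Capitals mark matches to the letters of 11 transcription factor motifs searched on both strands, such as TGANTCA (AP-1), ACANNNTGT (glucocorticoid receptor), TTGCNNAA (C/EBP), CCCNNGGG (EBF) and GGGCGG (SP and KLF). The first pair are the strongest regions of Prdm16 and Ebf2, held by all 6 libraries. The next 3 are regions that some conditions lacked.
Prdm16 intron, chr4:154425288-154425487: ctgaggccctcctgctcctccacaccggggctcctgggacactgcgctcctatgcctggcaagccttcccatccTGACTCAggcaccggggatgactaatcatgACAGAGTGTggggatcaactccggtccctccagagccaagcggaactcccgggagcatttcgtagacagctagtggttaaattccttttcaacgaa
Upstream of Ebf2, chr14:67188763-67188962: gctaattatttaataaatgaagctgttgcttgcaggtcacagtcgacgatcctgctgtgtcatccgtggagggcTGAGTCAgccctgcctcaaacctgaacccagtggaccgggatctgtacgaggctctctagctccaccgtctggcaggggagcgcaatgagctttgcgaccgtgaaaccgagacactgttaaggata
Prdm16 intron without a white peak, chr4:154530583-154530782: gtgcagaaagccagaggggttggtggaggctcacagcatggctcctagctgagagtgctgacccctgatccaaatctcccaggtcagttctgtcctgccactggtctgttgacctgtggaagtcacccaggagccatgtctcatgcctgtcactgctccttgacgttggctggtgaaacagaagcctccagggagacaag
Cacna1b intron near Ehmt1 with beige peaks alone, chr2:24755407-24755606: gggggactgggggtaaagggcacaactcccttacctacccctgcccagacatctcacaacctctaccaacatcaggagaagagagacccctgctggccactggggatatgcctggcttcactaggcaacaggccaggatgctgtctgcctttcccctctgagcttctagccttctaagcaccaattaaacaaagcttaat
Exoc2 intron near Irf4 with beige peaks alone, chr13:30819993-30820192: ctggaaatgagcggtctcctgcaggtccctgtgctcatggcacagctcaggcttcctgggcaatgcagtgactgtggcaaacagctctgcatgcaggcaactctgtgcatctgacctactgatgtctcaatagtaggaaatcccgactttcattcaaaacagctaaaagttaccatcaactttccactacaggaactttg
Before the Ebf1 start, chr11:44617117-44617316, plus strand: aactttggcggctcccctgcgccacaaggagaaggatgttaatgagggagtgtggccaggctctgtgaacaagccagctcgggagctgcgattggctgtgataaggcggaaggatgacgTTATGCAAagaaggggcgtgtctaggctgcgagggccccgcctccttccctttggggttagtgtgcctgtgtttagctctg
Before the Prdm16 start, chr4:154636874-154637073, minus strand: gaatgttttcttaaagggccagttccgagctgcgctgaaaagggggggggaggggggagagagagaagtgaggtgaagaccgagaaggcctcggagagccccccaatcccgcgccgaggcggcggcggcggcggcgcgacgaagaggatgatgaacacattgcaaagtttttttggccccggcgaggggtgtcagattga
Before the Ehmt1 start, chr2:24919615-24919814, minus strand: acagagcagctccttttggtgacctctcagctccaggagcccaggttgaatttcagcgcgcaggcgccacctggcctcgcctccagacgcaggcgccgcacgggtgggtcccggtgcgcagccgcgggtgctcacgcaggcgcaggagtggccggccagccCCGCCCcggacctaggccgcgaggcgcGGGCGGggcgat

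The intronic Prdm16 summit had the AP-1 letters TGACTCA with their first base 26 bp before the summit and the glucocorticoid receptor letters ACAGAGTGT with theirs 4 bp after it. The Ebf2 summit held the AP-1 letters TGAGTCA, also 26 bp before it. The 3 condition-limited summits shown matched none of the 11 motifs. Others named later did, such as that at 223607 bp in Ebf1 (AP-1) and that 416853 bp from the Prdm16 start (EBF). Ahead of Ebf1 the C/EBP letters stood on the minus strand as TTATGCAA at 81 bp before the start site, which 6.71% of all 41433 coding start sites matched somewhere in the same 200 bp. The window before Ehmt1 held the SP and KLF letters on each strand, as did 40.1% of all start sites on either strand, and the Prdm16 window held no match. Across the 395 regions the letters of AP-1 were found in 17.7% (21.2% of all regions), those of C/EBP in 13.2% (12.5%), of NFI (TTGGCA) in 15.4% (15.4%), of the glucocorticoid receptor in 7.85% (6.94%) and of EBF in 5.82% (9.17%). These matches describe letters and not bound factors. The start sites themselves differed in composition. Over the 1 kb centred on it, the Prdm16 start was 68.7% G and C, at the 92.9th percentile of coding start sites, and the main Ehmt1 start 66.0%, at the 87.7th. The Ebf1 start had 52.0% G and C, at the 37.8th percentile.

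The deposited lists held 109143 to 127490 peaks per library, each called by the authors at a q value under 0.05. Fold enrichment and −log10 q are relative to one library, so each peak was given its percentile of fold enrichment within its own list, where 100 is the highest. White libraries had a median −log10 q of 9.36 and 9.18, against 11.2 and 12.5 in beige and 12.1 and 9.39 in brown, so that a fixed threshold does not cut the lists at the same place. The lists give no read depth, whose part in these differences was not tested. With 2 libraries against 2, an exact permutation test allows no two-sided p below 0.333. Conditions were therefore set side by side without a test, and a difference is called non-overlapping where both libraries of one condition lay above both of the other. As a check of the labels, the promoters of 7 of 8 adipocyte markers were open in every library, as were those of 2 of 4 brown adipocyte markers, Cidea and Dio2, white included. Ucp1, the uncoupling protein of brown fat, had a promoter peak in the brown libraries alone, near the bottom of their lists at percentiles of 9.12 and 4.23. The promoters of 6 B cell markers had no peak in any library, whereas 3 of 6 endothelial and 4 of 6 progenitor markers had one in all 6. Of 6 macrophage markers, Adgre1 and Cd68 had one in all 6, Cd14 in 4, and Csf1r, Ptprc and Spi1 in none. These peaks stood at percentiles of 21.7 to 59.8 for Adgre1, 0.728 to 45.9 for Cd68 and 73.6 to 82.5 for Cd14. The part of other cell types in the results was not tested.

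All 7 genes had a promoter peak, with a summit within 1 kb of a coding start site, in all 6 libraries. Of all coding genes 61.8% had one in every library and 28.9% in none. Among 22 partners and co-regulators of these proteins, 20 had a promoter peak in every library, including Pparg, Ppargc1a, Cebpb and Zfp423. The exceptions were Zic1, a brown depot marker present in both brown libraries and beige replicate 2, and Ebf4, which was missing in white replicate 1. Promoter presence therefore did not separate the conditions for any of the 7 genes, and their rank was compared instead.

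The promoter of Ebf1 ranked higher in brown than in the other conditions. Its peak, 90 to 142 bp before the start site at chr11:44617317, stood at percentiles 90.7 and 90.1 in brown, 75.1 and 73.4 in beige and 79.7 and 74.5 in white. The brown mean of 90.4 ± 0.406 (SD, n = 2) compares with 74.3 ± 1.18 in beige and 77.1 ± 3.64 in white. Ranked by −log10 q, the brown mean exceeded the beige mean by 2.50 percentile points, against 16.1 by fold enrichment. The promoter of Ehmt1 was lowest in white. It was among the strongest peaks of each beige and brown list, at percentiles 96.7 and 97.1 in beige and 97.1 and 97.7 in brown, and stood at 89.7 and 86.3 in white. Beige and brown overlapped at this promoter. Ranked by −log10 q, beige minus white was 4.89 points there in place of 8.88.

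The promoter of Prdm16 was weak in every library. Its strongest peak within 1 kb of chr4:154636866 had a −log10 q of 5.93 to 16.9 and stood at percentiles 4.0 and 2.8 in beige, 48.0 and 31.1 in white and 15.2 and 11.3 in brown, without overlap between any conditions. The brown values are not from 1 element, since the summit lay 588 bp after the start in replicate 1 and 247 bp before it in replicate 2. Brown peaks 48 and 39 bp after the start stood at 6.24 and 11.1. The order of the conditions depended on the distance allowed. The summit of white replicate 1 lay at 860 bp after the start, in an interval of 1043 bp that belongs to a region centred at 1070 bp, which all 6 libraries held at percentiles 48.9 and 50.8 in beige, 48.0 and 47.0 in white and 51.4 and 59.5 in brown. With peaks up to 3 kb from the start, the beige mean exceeded the white mean by 2.34 points, whereas at 1 kb it lay below it by 36.2 points (beige minus white −36.2). The window within 500 bp had no white replicate 1 peak.

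At the other 4 promoters beige and white overlapped except at Irf4. Ebf2, at its start site chr14:67234644, stood at 83.9 and 82.3 in beige, 91.3 and 68.1 in white and 86.2 and 91.9 in brown, so that brown lay above beige and the 2 white libraries spanned both. Ranked by −log10 q, brown minus beige at Ebf2 was 1.36 points in place of 5.93. Ebf3 stood at 72.9 and 55.5 in beige, 74.0 and 69.5 in white and 73.7 and 84.3 in brown, with both brown values above the higher beige value. Ranked by −log10 q, brown minus beige at Ebf3 was 2.04 points in place of 14.8, and beige minus white turned from −7.52 to 8.71. The white replicate 2 peak of Ebf3 belonged to a second start site in the gene, chr7:137267538. At the start site of the other libraries, chr7:137314445, white replicate 2 stood at 21.0. Beige minus white at Ebf3 was therefore not taken at a single start site. Zfp516 stood at 29.2 and 30.2 in beige, 70.1 and 27.1 in white and 46.3 and 60.2 in brown. Its white replicate 2 peak belonged to a second start site, chr18:82914632. At the start site of the other libraries, chr18:82910879, white replicate 2 stood at 27.7. Brown lay above beige, and 1 white library lay on either side of both. The brown mean exceeded the beige mean by 23.6 points, but by 5.43 when ranked by −log10 q and by 9.95 with peaks up to 3 kb from the start. Irf4 stood at 73.6 and 76.3 in beige, 70.1 and 71.3 in white and 71.9 and 64.1 in brown, and its beige pair lay above the other 4 libraries.

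**Figure D1:**
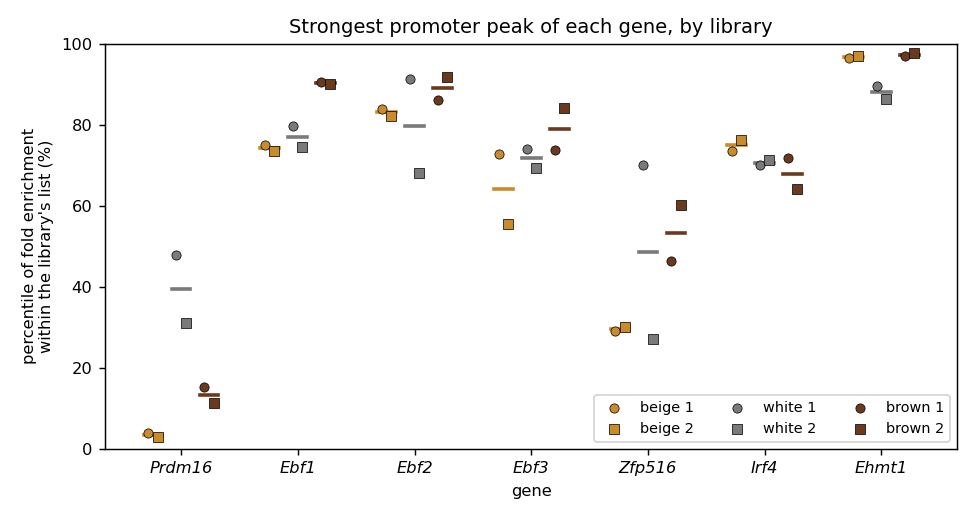
Percentile of fold enrichment (y axis, %, within each library's own list) of the strongest promoter peak of each gene (x axis). Circles are replicate 1, squares replicate 2 and short lines the mean of 2 libraries. The brown pair at Ebf1 (90.7 and 90.1) and the white pair at Ehmt1 (89.7 and 86.3) stand apart from the other 4 libraries, and all Prdm16 values lie under 50.

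The genes differed in how much open chromatin surrounded them. Zfp516 (chr18:82910663-83005314, plus strand) had 64 regions, or 21.7 per 100 kb of window, above 96.2% of all coding genes, whose median was 11.5. Irf4 (chr13:30749226-30766976, plus) had 40 regions and 18.4 per 100 kb, and Ebf2 (chr14:67233292-67430918, plus) 72 and 18.1. Ebf1 (chr11:44617317-45008091, plus) had 96 and 16.2, Ebf3 (chr7:137193673-137314445, minus) 40 and 12.5, and Prdm16 (chr4:154316125-154636873, minus) 57 and 10.9. Ehmt1 (chr2:24789928-24919614, minus) was the sparsest, with 26 and 7.89. The regions sat inside the gene in 71 of 96 cases at Ebf1 and 49 of 72 at Ebf2, but in 1 of 40 at Irf4, a short gene whose window also holds parts of Dusp22 and Exoc2. The Ehmt1 window holds 6 other coding genes, and those of Ebf2 and Zfp516 none. In sum over the 7 windows each library had 222 to 275 peaks. The counts were 253 and 275 in beige, 259 and 247 in white and 251 and 222 in brown. Both beige counts lay above both brown counts, and white overlapped with each. The whole lists were also longer in beige (118812 and 127490 peaks) than in brown (113861 and 109143).

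Of the 395 regions, 124 (31.4%) held a peak in all 6 libraries, against 30.2% of all regions. Regions with a peak in both libraries of some conditions and in none of the rest numbered 28. The beige-alone class had 10 of 395 (background 1.94%), beige and brown without white had 6 (1.25%), beige and white without brown 5 (1.16%), white alone 4 (1.23%), brown alone 2 (0.877%), and white and brown without beige 1 (0.243%). As shares of 395 these were 2.53%, 1.52%, 1.27%, 1.01%, 0.506% and 0.253%, near the background in each class. The remaining 243 (61.5%, background 63.1%) were held by 1 library of some pair. None of the 28 regions was a promoter, 21 were intronic, and their median width was 250.5 bp against 531.5 bp for the 124. The smallest −log10 q among the libraries that held the region exceeded 5 in 5 of the 28. The median of these smallest values was 3.95 and the lowest 2.03, whereas the lists began at 1.30 to 1.31. Most of the 28 were therefore modest peaks, since the median −log10 q of whole lists was 9.18 to 12.5. Absence from the other libraries is a call and not a measured lack of signal. Without any single library the 28 became 51 to 87, since 1 library then stands for its condition. At a q under 0.00001 the same classes held 17 regions. These need not be among the 28, since the threshold also takes weaker peaks out of other regions.

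**Figure D2:**
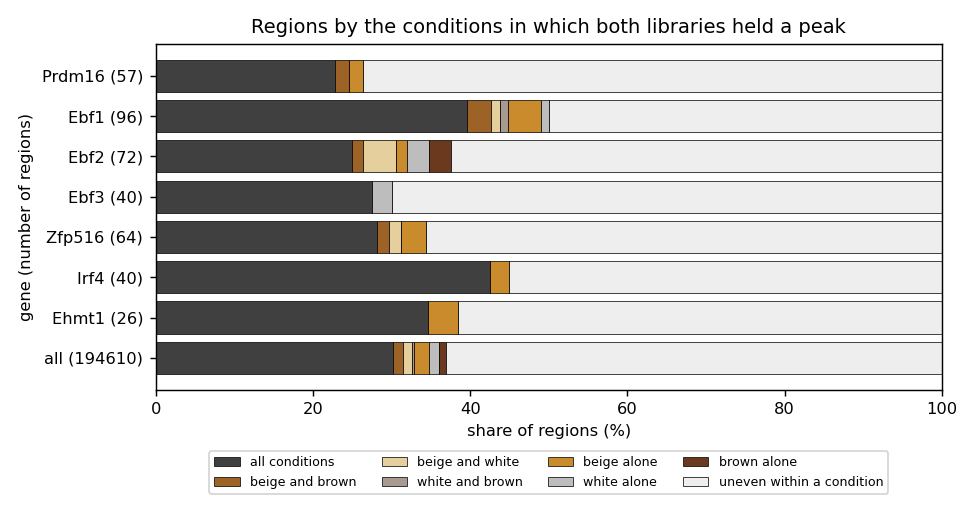
Share of regions (x axis, %) by the conditions in which both libraries held a peak and the others none, for each gene and for all 194610 regions (number of regions in parentheses). The palest segments are regions held by 1 library of a condition, and the classes of 1 or 2 conditions are thin in each row. Among the 7 genes the Ebf2 row holds the brown-alone regions (2 of 72, or 2.78%, against 0.877% of all regions).

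The beige-alone region of highest significance lay in an intron of Zfp516, 50728 bp after the gene's start, with −log10 q of 13.2 and 24.0 and percentiles of 58.0 and 72.5, and no peak in white or brown. The next was the Cacna1b intron 164107 bp from the start of Ehmt1, with −log10 q of 11.7 and 12.4 and percentiles of 53.9 and 57.4. It lay 7540 bp from the Cacna1b start, so its link to Ehmt1 is position alone. The Exoc2 intron 70867 bp past the Irf4 start had percentiles of 47.3 and 45.3 in beige, and an Ebf1 intron at 4973 bp had 8.61 and 1.66. Ebf1, with 96 of the 395 regions, had 4 of the 10 beige-alone regions and 3 of the 6 shared by beige and brown. These were 4.2% and 3.1% of its regions, against 1.94% and 1.25% of all regions.

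Brown-alone regions were found at Ebf2 and at none of the other 6 genes, both in its introns. Ebf2 also had a region that white lacked, 62837 bp before its start in the noncoding gene Gm30806, where brown had −log10 q of 16.8 and 12.1 and beige 2.1 and 5.7. A pair of regions 83778 and 60645 bp before Ebf2 had peaks in both beige libraries and white replicate 2 and none in brown, at beige percentiles of 46.6 and 34.4, and of 66.0 and 35.6. White-alone regions were 4, of which 2 lay in Ebf2 introns, and the one at Ebf3, 7950 bp before its start, had −log10 q of 4.58 and 2.46.

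At Prdm16, 3 named regions lacked white peaks. The intron at 106190 bp had percentiles of 21.3 and 49.7 in brown and 22.0 in beige replicate 2. A Megf6 intron 363657 bp from the Prdm16 start had 45.0 and 49.4 in beige and 14.9 in brown replicate 2, and another at 416853 bp had 12.3 and 21.8 in brown and 21.4 in beige replicate 1. At Ehmt1 an intron at 20066 bp had 63.3 and 45.1 in brown and 30.5 in beige replicate 2, without a white peak, and an intron at 30551 bp had 23.8 and 35.7 in beige and 9.76 in brown replicate 1. Ebf3 had the same kind of region at 91334 bp, with 36.8 and 21.8 in beige and 14.8 in brown replicate 1. These 6 regions come from a rule that names at most 3 per gene, so their number measures no preference among conditions. At each of them beige and brown had a peak in at least 1 library where both white libraries had none. The opposite pattern, with both white libraries and no beige library, was seen at 223607 bp in Ebf1 (43.0 and 58.0 in white, 25.4 in brown replicate 2) and in an Irf4 exon at 1327 bp (20.0 and 20.4 in white, 1.41 in brown replicate 1). Regions lacking in brown were an Ebf1 intron at 327504 bp, with 11.0 and 13.0 in beige and 38.0 in white replicate 2, a site 50279 bp before Ebf3, with 4.19 and 34.5 in beige and 10.9 in white replicate 2, and one 89536 bp before Zfp516, with 16.1 and 8.83 in beige and 40.0 and 24.7 in white. A region 94163 bp before Zfp516 had both brown libraries, at 6.14 and 4.75, and white replicate 1, at 7.75, without beige. All these were low or middling peaks of their lists.

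**Figure D3:**
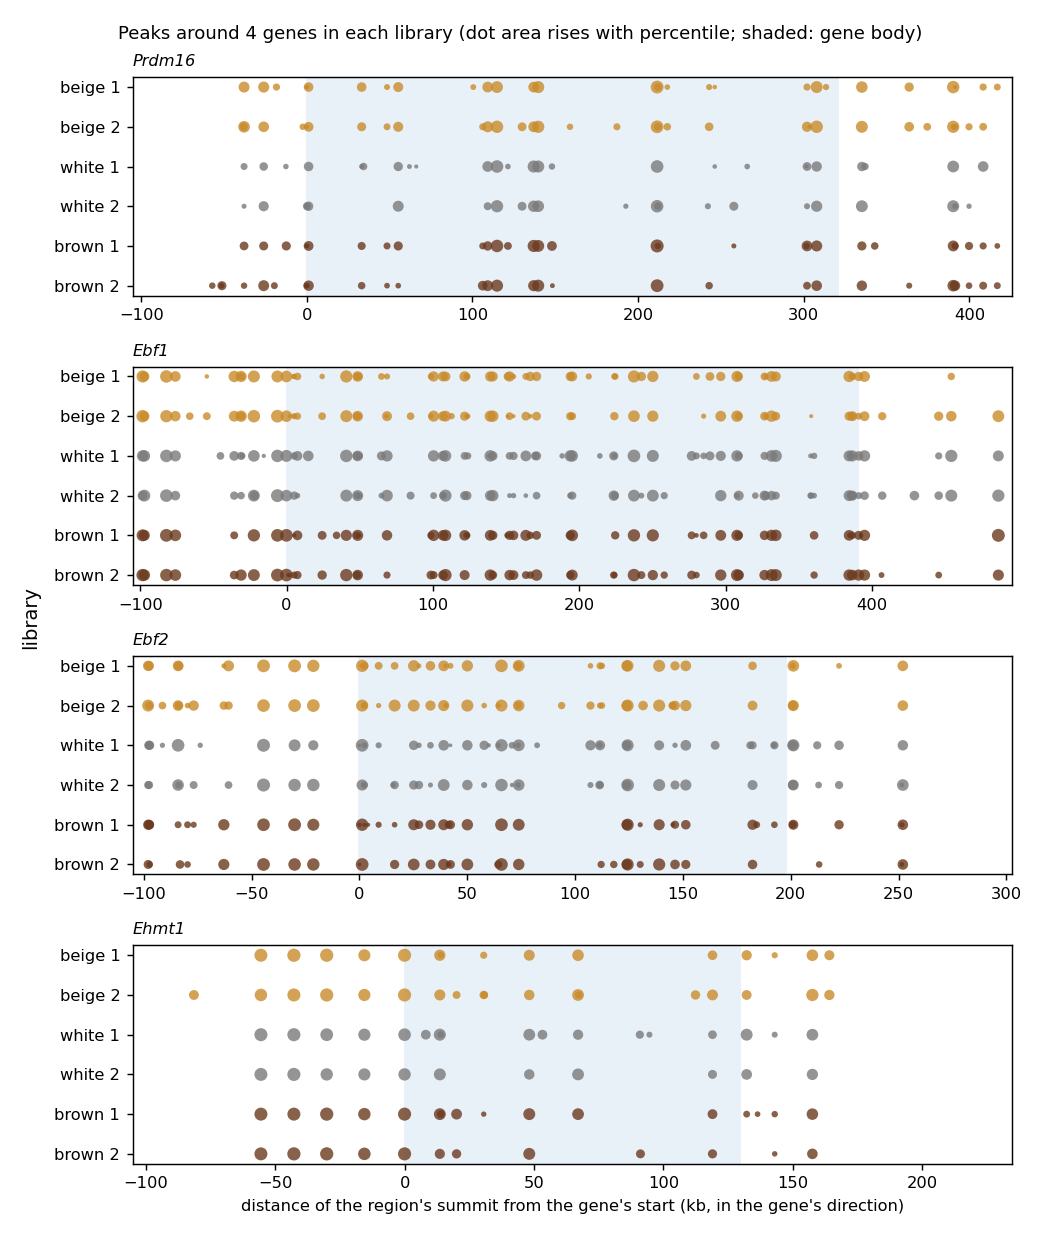
Peaks of each library (rows) by distance of the summit from the start of Prdm16, Ebf1, Ebf2 and Ehmt1 (x axis, kb, in the gene's direction). Dot area rises with the percentile of fold enrichment and shading marks the gene. Large dots stand above each other in all 6 rows, whereas dots present in some rows are mostly small.

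The 124 regions held by all 6 libraries gave a rank in every library. Their median percentile was 64.8 to 70.0 over the libraries, against 72.0 to 75.2 for all 58720 such regions. Both beige percentiles lay above both white in 38 of 124 (30.6%, background 25.8%) and below in 23 (18.5%, background 22.1%). Brown lay above white in 30 (24.2%, background 22.7%) and below in 22 (17.7%, background 23.9%). Brown lay above beige in 29 (23.4%, background 24.0%) and below in 26 (21.0%, background 27.3%), a balance that depended on the ranking. By −log10 q brown lay above beige in 20 and below in 36, and with equally long lists in 39 and 22. Over the 7 genes together the shares lay on both sides of the background, and the genes differed in which direction was the more frequent. Counts over one gene rest on 9 to 38 regions that share libraries and are given as a description.

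Prdm16 had the highest share with beige above white. Of its 13 regions held by all 6 libraries, 8 (61.5%, background 25.8%) ranked higher in beige than in white and 1 (7.69%, background 22.1%) lower. Beige lay above brown in 6 (46.2%, background 27.3%) and below in 2 (15.4%, background 24.0%). In a site 37886 bp before the gene the percentiles were 66.3 and 75.1 in beige, 22.2 and 7.7 in white and 39.5 and 17.5 in brown. In an intron at 307813 bp they were 79.5 and 87.1 in beige, 57.9 and 69.7 in white and 67.3 and 61.0 in brown. An intron at 136952 bp went the other way, with 62.3 and 63.1 in beige, 81.6 and 71.6 in white and 82.2 and 67.9 in brown. The strongest region, the intron at 211485 bp whose sequence is shown above, was high in each condition, with 93.4 and 91.5 in beige, 89.8 and 88.8 in white and 96.5 and 92.5 in brown. Of the 8 regions, 5 lay inside Prdm16, and of the 6 higher in beige than in brown, 3 did. Among those 6 were the promoter of the neighbour Arhgef16 and a Megf6 intron 390235 bp from the Prdm16 start. The window holds 4 other coding genes, and 22 of its 57 regions were nearest to the Prdm16 start.

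Ebf2 had the next highest share. Of 18 regions, 8 (44.4%, background 25.8%) ranked higher in beige than in white and 1 (5.56%, background 22.1%) lower. Brown lay above white in 7 (38.9%, background 22.7%) and below in 2 (11.1%, background 23.9%). Beige and brown were above each other in 3 each (16.7%, backgrounds 27.3% and 24.0%). The intron at 32977 bp had 48.5 and 55.9 in beige, 55.2 and 51.2 in brown and 19.2 and 7.5 in white. The intron at 25226 bp had 72.6 and 79.1 in beige, 66.8 and 76.6 in brown and 47.7 and 44.5 in white. The strongest Ebf2 region, 44429 bp before the start in Gm30806, was the exception, with 94.6 and 96.4 in white, 93.0 and 90.9 in beige and 90.3 and 92.6 in brown. Without white replicate 1 or 2, beige was above white in 9 or 13 regions and brown above white in 8 or 14. There 1 library stands for the pair, so that counts grow by construction. At a q under 0.00001 beige was above white in 5 of 15.

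Ebf1 differed from both in its direction. Of its 38 regions 14 (36.8%, background 24.0%) ranked higher in brown than in beige and 2 (5.26%, background 27.3%) lower. Beige lay above white in 5 (13.2%, background 25.8%) and below in 8 (21.1%, background 22.1%). At 155134 bp the percentiles were 47.9 and 49.6 in brown, 8.7 and 1.6 in beige and 33.6 and 9.6 in white, without overlap between any of the conditions. At 108641 bp they were 72.5 and 82.9 in brown, 73.7 and 81.6 in white and 50.6 and 65.1 in beige. The strongest Ebf1 region, 6236 bp before the start, had 79.4 and 92.1 in beige, 87.9 and 94.0 in white and 90.5 and 92.0 in brown, with overlap. Ranked by −log10 q, 9 regions were higher in brown than in beige in place of 14. Without brown replicate 1 or 2 the count was 24 or 22, where 1 library stands for the pair and counts grow by construction.

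At Irf4, 7 of 17 regions (41.2%, background 27.3%) ranked higher in beige than in brown and 2 (11.8%, background 24.0%) lower. White lay above brown in 6 (35.3%, background 23.9%) and below in 4 (23.5%, background 22.7%). None of the 17 lay inside the gene, and among those of high rank were the promoter of Dusp22 (87.3 in both white libraries, 94.4 and 83.3 in beige, 97.0 and 92.8 in brown) and introns of Exoc2. A site 32913 bp past the Irf4 start had 84.3 and 83.0 in beige, 75.0 and 79.3 in white and 78.3 and 73.9 in brown. At Ehmt1, 5 of 9 regions (55.6%, background 22.7%) ranked higher in brown than in white and 1 (11.1%, background 23.9%) lower. Among those higher in brown were its own promoter and the promoters of the neighbours Arrdc1 and Zmynd19. The Zmynd19 promoter had 99.6 and 98.8 in beige, 99.4 and 99.7 in brown and 91.7 and 85.8 in white, the same order as the Ehmt1 promoter, whereas the Dph7 promoter, the strongest of the window, overlapped at 99.6 and 96.7 in beige, 97.6 and 97.7 in white and 95.8 and 99.3 in brown.

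Zfp516 and Ebf3 had no prevailing direction. Of 18 Zfp516 regions 5 (27.8%, background 25.8%) ranked higher in beige than in white and 6 (33.3%, background 22.1%) lower. Its strongest region, 7913 bp before the start, had 88.0 and 87.5 in beige, 93.4 and 90.2 in white and 91.3 and 90.1 in brown, and an intron at 65457 bp had 91.1 and 91.6 in beige, 90.9 and 93.2 in brown and 84.5 and 78.6 in white. Of 11 Ebf3 regions 4 (36.4%, background 25.8%) ranked higher in beige than in white and 2 (18.2%, background 22.1%) lower. An intron at 92576 bp ranked highest in brown, with 77.9 and 82.6 in brown, 45.2 and 68.7 in beige and 13.5 and 41.4 in white. The strongest region of the Ebf3 window was the promoter of the neighbour 9430038I01Rik, with percentiles of 96.6 to 99.0 in all 6 libraries.

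**Figure D4:**
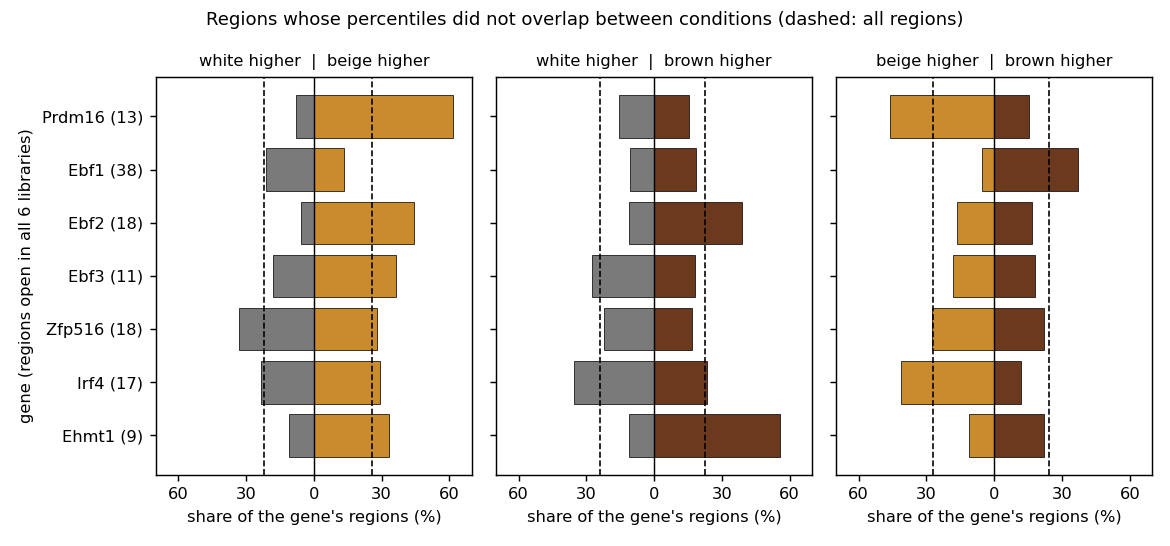
Share of each gene's regions held by all 6 libraries (x axis, %, number of regions in parentheses) in which both percentiles of one condition lay above both of the other, to the left and to the right of 0. Dashed lines are the shares over all 58720 such regions. Prdm16 and Ebf2 extend furthest toward beige against white (61.5% and 44.4%), Ehmt1 toward brown against white (55.6%) and Ebf1 toward brown against beige (36.8%).

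**Figure D5:**
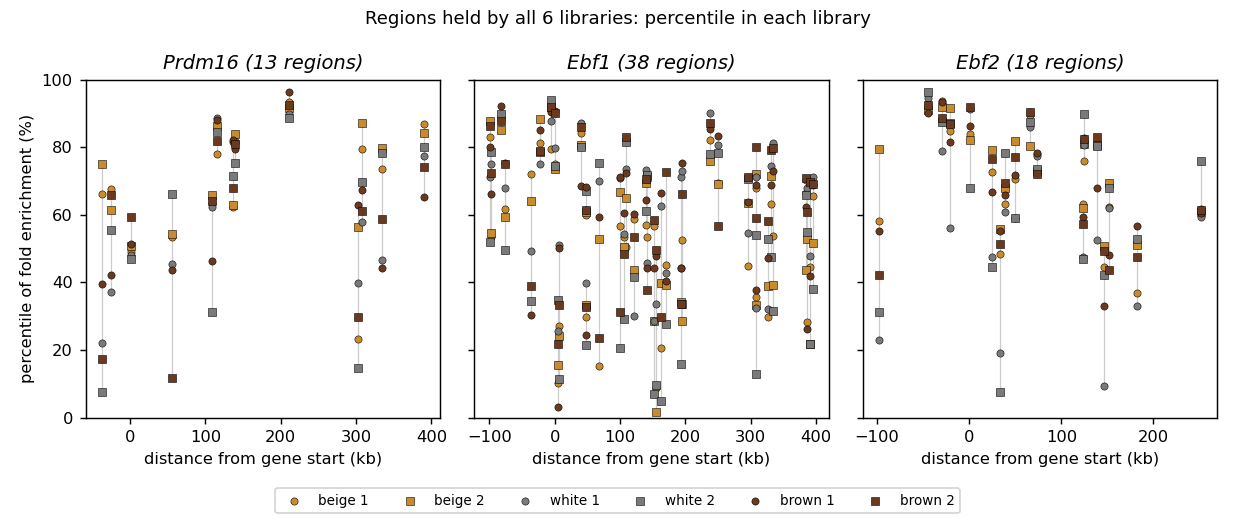
Percentile of fold enrichment (y axis, %) in each library for the regions of Prdm16, Ebf1 and Ebf2 held by all 6 libraries, by distance from the gene's start (x axis, kb). Circles are replicate 1, squares replicate 2, and vertical lines join the lowest and the highest library. The Prdm16 intron of highest rank spans percentiles of 88.8 to 96.5, whereas many weaker regions spread widely, also between replicates of one condition.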

How the data were processed

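The data are 1 ATAC-seq peak list per library, from 2 beige, 2 white and 2 brown adipocyte cultures. The brown libraries are labelled by the authors but not described in the paper, whose methods give 2 biological replicates per group. For insulin the paper gives other concentrations than the labels, which are used here. The authors trimmed adaptors with Trimmomatic, aligned reads to mm10 with BWA and called peaks per library with MACS2 at a q value under 0.05. In the deposited lists the fold enrichment is a ratio of the summit's pileup over the local background of that library, and −log10 q is given per summit. The deposited score and the −log10 p were not used. The lists hold no read counts, so precision rests on the number of peaks. The paper's reporting summary gives more mapped reads for each white than for each beige library, and its read numbers, which do not cover brown, were not used here.

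Summits sharing an interval were counted once, at the highest −log10 q, and ranked by fold enrichment within the list. Intervals of the 6 libraries that overlapped by 1 bp were merged into regions, and a library's percentile in a region is its highest. A promoter peak had its summit within 1 kb of a start site of a basic protein-coding transcript (GENCODE M21, mm10). Where a library had several, that of the highest −log10 q was taken. Python 3.11.15 with numpy 2.4.6, pandas 2.3.3 and matplotlib 3.10.9 was used. Merging, classes and promoter calls were tested on simulated data. Motif letters were searched in 200 bp around summits and before start sites.

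The 7 genes, the 22 partners, the marker lists and the motifs were chosen with earlier results of these data known. Near each gene the rule named the promoter peaks, up to 3 regions with a peak in both libraries of 1 condition and in neither of another, by their smallest −log10 q, and the region of highest mean percentile. Other regions, chosen after their values were seen, are examples. No sequence is shown for Zfp516, and 1 region that the rule names at Ebf2 is not reported here.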

Additional observations from a re-analysis of the deposited data

How the results depend on the processing

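No paired analysis was possible because the labels tie the replicate numbers to no animal or batch and no result comes from a fit that a replicate block could enter. A promoter peak in every library was found for 7 genes under each alternative but the distance of 500 bp, where 6 remained. The mean of 251.2 peaks per library near the genes became 196.2 at a q under 0.00001, 232.3 with equally long lists and 197.0 within 50 kb. Limits of the lists are that absence means a peak under the authors' threshold and that small differences in how a caller splits intervals move a summit in or out of a window.

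The 124 regions held by all libraries became 75 within the gene body and 1 kb before it, and 125 to 135 without single libraries. The 28 regions of 1 or 2 conditions became 18 in the gene body. At a q under 0.00001 regions of 1 or 2 conditions numbered 17, which need not be among the 28. With equally long lists they were 21, of which 5 were beige alone in place of 10 and 5 brown alone in place of 2. Within the gene body, an alternative chosen after seeing the data for ranks, beige was above white in 22, beige above brown in 11, white above beige in 14, white above brown in 13 and brown above white in 18. White was above beige in 14 at a q under 0.00001. Leaving out single libraries asks 1 library to stand for a pair, so counts grow by construction. The 28 then ranged from 51 to 87, beige above white from 39 to 69, beige above brown from 27 to 48, white above beige from 23 to 56, white above brown from 22 to 47, brown above beige from 29 to 54 and brown above white from 30 to 63.

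The Prdm16 promoter difference of beige minus white, −36.2 points, and of brown minus white, −26.3, became 2.34 and 7.91 with peaks up to 3 kb from the start, for the reason given with that promoter. All alternatives for promoter ranks were chosen after seeing the data.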
